A study of Mus musculus with 6 samples.

Results

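The genes described here are the collagen chains, 42 of the 23407 genes in the table, taken as every protein-coding gene whose symbol is Col, a type number, the letter a and a chain number. Their RNA was measured by bulk sequencing in primary dermal fibroblasts, cells grown out of the dorsal skin of 12-week-old mice and harvested at passage 1. There were 3 libraries from mice labelled TSP2KO, by that label a knockout of thrombospondin-2, and 3 from mice labelled WT. Per the labels' protocols, the cells grew for 3 to 5 days in serum-containing medium, and the library kit selected poly(A) RNA and kept the strand. The labels name neither the strain nor how thrombospondin-2 was deleted, and do not state whether each library stands for a different animal. The p-values therefore reflect variation among libraries only, which may be technical. By its title, the series is about altered fibroblast states and wound healing. The comparison shows how collagen transcripts differ between cells labelled TSP2KO and WT. Thrombospondin-2 is a secreted glycoprotein of the matrix, and its protein was not measured here.

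Collagens are triple-helical proteins of the extracellular matrix, and each gene encodes a chain that assembles with like or different chains into a trimer. Fibrillar types I, III and V form the fibrils that give dermis its tensile strength, and fibril-associated types bind to their surface. Type IV builds the sheet of basement membranes, type VI forms beaded filaments around cells, and the transmembrane types sit in the plasma membrane. Mice without thrombospondin-2 are known for fragile skin with collagen fibrils of abnormal shape.

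Thbs2, the targeted gene, had 5177, 6635 and 4891 normalised reads in TSP2KO 1, TSP2KO 2 and TSP2KO 3, against 122061 and 116720 in WT 1 and WT 2 and 8841 in the library labelled WT 3. A normalised read is the deposited unit, taken here as a read divided by a size factor of its library. The log2 fold change of Thbs2 was -3.18 (adjusted p = 0.318 by limma), and -4.43 without that library (adjusted p = 0.00257 by limma). In this gene the library labelled WT 3 thus lay near the TSP2KO libraries, against its label, though above each of them. A principal component is an axis of variation over the tested genes. On the first, holding 45.4% of the variance, the library labelled WT 3 was at 64.1. WT 1 and WT 2 were at -65.0 and -67.1, and TSP2KO 1 to 3 at 51.7, 20.5 and -4.05. On the second, holding 33.8%, the library labelled WT 3 was at -47.1 and WT 1 and WT 2 at -37.0 and -11.1. TSP2KO 1 to 3 were there at 4.17, 0.811 and 90.3. The library labelled WT 3 is part of every WT mean given here. Estimated depth was 14776502 to 20521968 reads in TSP2KO and 18266754 to 34599855 reads in WT. All 9 fibroblast markers chosen for reference had means of at least 10, with a summed level of 80362 to 92381 in TSP2KO and 121384 to 290240 in WT and no overlap between the groups. Postn had the highest mean of these markers, at 72409 normalised reads. Taken gene by gene, only Dcn, Lum and Pdgfra did not overlap between the groups. Vim and Mfap5 had log2 fold changes of 0.18 and 0.38, while those of the other fibroblast markers were negative. Macrophage markers (13 of 14 at a mean of at least 10) summed to 709 to 819.6 in TSP2KO and 3303 to 6015 in WT, with Fcgr1 at 0 in TSP2KO, and also did not overlap. Keratinocyte markers (10 of 13) summed to 657 to 19591 in TSP2KO and 676 to 56324 in WT, highest in the library labelled WT 3, with Krt1 and Krt15 at or near 0 in all libraries. The part of these cells in the collagen results was not tested. In bulk RNA, fewer cells of a type and less RNA per cell cannot be told apart.

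Of the 42 collagen genes, 31 had a mean of at least 10 normalised reads over the 6 libraries and were tested within a limma fit over 14707 genes. None passed at an adjusted p under 0.05, where 0% of all tested genes passed as higher and 0.0612% as lower in TSP2KO. Before adjustment, 7 collagen genes were at a limma p under 0.05, as were 9.75% of all tested genes. Of these, Col7a1, Col15a1, Col4a1 and Col6a2 were the 4 higher in TSP2KO and Col14a1, Col18a1 and Col25a1 the 3 lower, against 3.66% and 6.09% of all tested genes. By limma-voom 6 collagen genes were higher and 3 lower at that level, as were 733 and 707 of the 14707 tested genes. Again 0 collagen genes passed after adjustment. Fold changes went both ways. The fold change was above 0 for 18 of the 31, against 48.5% of all tested genes, and the median log2 fold change was 0.11 for the collagens and -0.014 for all tested genes. The values of the TSP2KO and WT libraries did not overlap for 7 collagen genes, against 14.2% of all tested genes. These were the same 7 genes, 4 higher and 3 lower in TSP2KO, where 5.9% and 8.27% of all tested genes showed the same.

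Without the library labelled WT 3, 2 collagen genes passed as higher in TSP2KO, Col7a1 and Col15a1, and 2 as lower, Col18a1 and Col28a1, where 2.43% and 2.75% of all tested genes passed, 5.17% in all. Without any other library, in turn, none passed. The library labelled WT 3 was low in collagen RNA: it lay below both WT 1 and WT 2 for 21 of the 31 genes and above both for 8, where it lay below both for 42.4% of all tested genes and above both for 39.4%. Its level was 0.628 times the mean of WT 1 and WT 2 at the median of the collagens, and 0.965 times at the median of all tested genes.

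**Figure D1:**
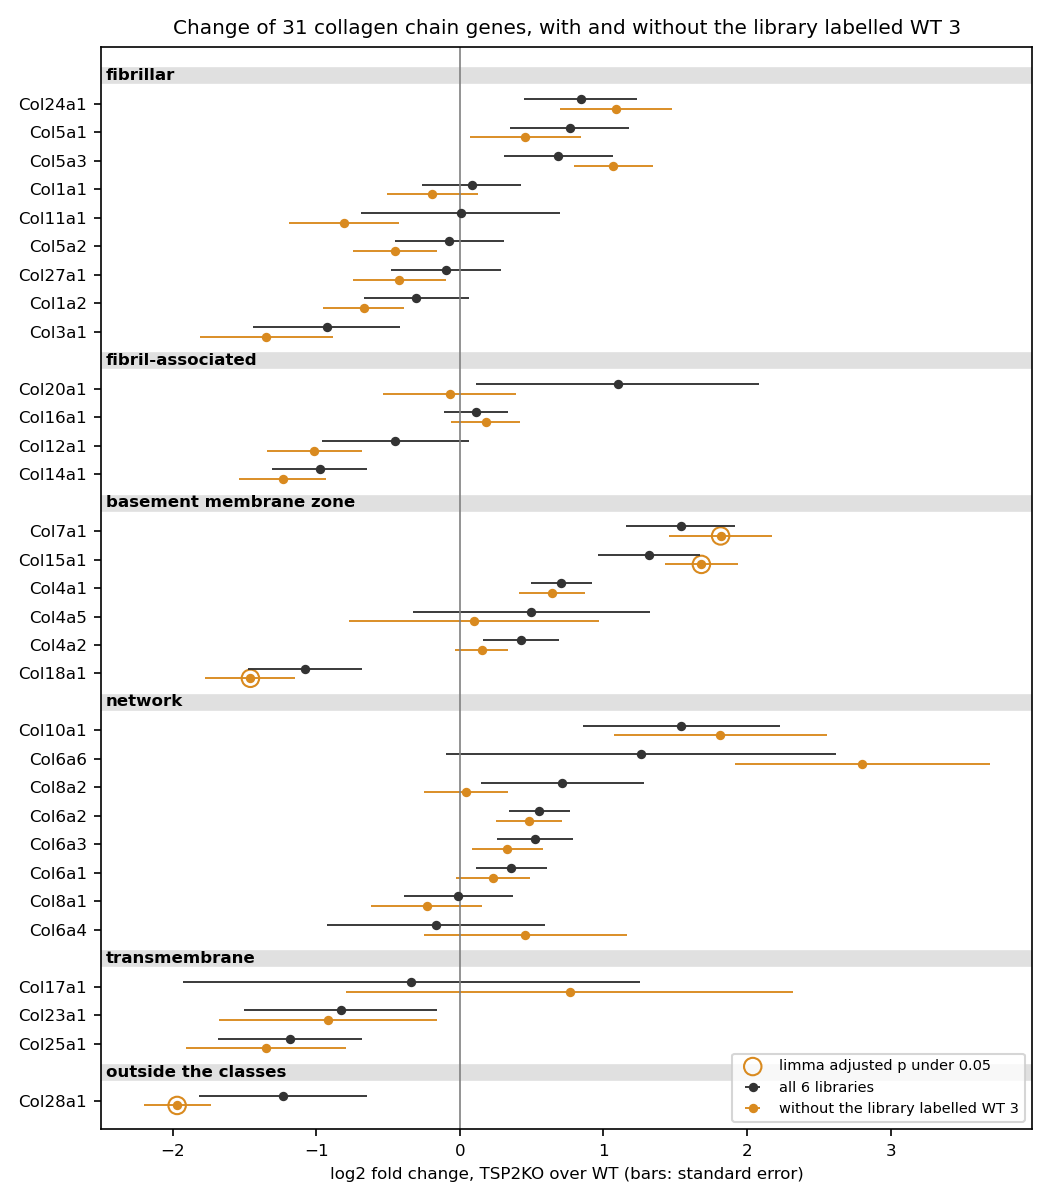
Log2 fold change of TSP2KO over WT for the 31 collagen genes tested, by class (rows), with all 6 libraries (dark) and without the library labelled WT 3 (orange); bars are standard errors of the limma fit, and rings mark an adjusted p under 0.05. Rings surround Col7a1, Col15a1, Col18a1 and Col28a1, all in the fit without that library, and the fold changes run from -1.23 to 1.54 with all libraries.

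The bases before the starts of these 4 genes are shown because their RNA passed the test in that fit. Windows of 250 bases before each start come from RefSeq on GRCm38.p6, which held a window for 33 of the 42 collagen genes, and are written 5′ to 3′ on the gene's own strand. Col7a1 lies at chr9:108953336-108953585, plus strand, Col15a1 at chr4:47207762-47208011, plus strand, Col18a1 at chr10:77166549-77166780, minus strand and Col28a1 at chr6:8192618-8192867, minus strand. For Col18a1 the 18 bases next to the start that an annotated exon covers are left off, and a second RefSeq start of the gene, inside the longer transcript, is not shown. The RefSeq start of Col15a1 lies upstream of the start in the deposited table. Capitals mark matches on either strand to a CCAAT box (CCAAT, or ATTGG on the other strand) or a GC box (GGGCGG, or CCGCCC). The AP-1 site (TGANTCA) and the TATA box (TATAAA) were searched as well and had no match in these windows; no 2 of the matches overlap.
Col7a1: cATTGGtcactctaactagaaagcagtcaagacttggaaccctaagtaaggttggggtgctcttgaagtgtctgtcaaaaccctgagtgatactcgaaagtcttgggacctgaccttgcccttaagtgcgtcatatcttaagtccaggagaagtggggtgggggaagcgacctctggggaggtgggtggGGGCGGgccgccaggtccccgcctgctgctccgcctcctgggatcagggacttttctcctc
Col15a1: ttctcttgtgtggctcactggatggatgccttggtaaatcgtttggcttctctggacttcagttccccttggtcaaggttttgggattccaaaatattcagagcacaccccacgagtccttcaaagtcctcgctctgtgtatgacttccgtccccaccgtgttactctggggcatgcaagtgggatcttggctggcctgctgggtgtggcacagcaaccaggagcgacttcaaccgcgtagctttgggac
Col18a1: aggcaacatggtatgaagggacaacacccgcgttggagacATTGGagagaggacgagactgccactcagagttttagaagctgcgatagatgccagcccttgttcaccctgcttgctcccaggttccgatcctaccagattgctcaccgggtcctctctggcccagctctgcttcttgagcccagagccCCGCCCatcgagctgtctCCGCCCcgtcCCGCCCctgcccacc
Col28a1: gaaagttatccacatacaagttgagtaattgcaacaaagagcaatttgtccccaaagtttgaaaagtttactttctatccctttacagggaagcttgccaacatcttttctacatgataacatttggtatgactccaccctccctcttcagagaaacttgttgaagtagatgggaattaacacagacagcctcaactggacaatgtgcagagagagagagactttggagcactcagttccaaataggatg
Col18a1 held 3 GC boxes, starting 61, 43 and 33 bases before the start, and 1 CCAAT box 210 bases before it. Col7a1 held 1 GC box 61 bases and 1 CCAAT box 249 bases before its start, while Col15a1 and Col28a1 held none of the 4 motifs. The search covered the full 250 bases before each start, the Col18a1 bases left off included. Of 32817 such RefSeq windows, 33.8% held a CCAAT box, 32.7% a GC box, 6.75% an AP-1 site and 12.4% a TATA box. The matches describe letters in these windows and no more.

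Fibrillar chains made up most of the collagen RNA. Levels between genes were compared as normalised reads per kilobase of the transcript with the longest coding sequence. On that scale Col3a1, the only chain of type III collagen, had 8511 ± 5331 in TSP2KO and 15546 ± 6584 in WT (SD, n = 3 each). Col1a2, the alpha-2 chain of type I, had 10617 ± 2544 in TSP2KO and 13667 ± 5242 in WT, and Col1a1, the alpha-1 chain, had 7894 ± 2246 in TSP2KO and 7546 ± 2555 in WT. The leading chain was thus Col1a2 in TSP2KO and Col3a1 in WT, but these neighbours in the order differed by less than their SDs. The chains of type V, type XI, type XXIV and type XXVII followed over a wide range. Of those tested, the lowest per kilobase were Col27a1, with 7.45 ± 2.04 in TSP2KO and 8.14 ± 2.82 in WT, and Col24a1, with 10.7 ± 4.63 in TSP2KO and 5.77 ± 1.87 in WT. Col2a1, the cartilage chain of type II, and Col11a2 were too low to test, at no more than 1.15 and 2.87 normalised reads in TSP2KO and 2.06 and 5.13 in WT.

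**Figure D2:**
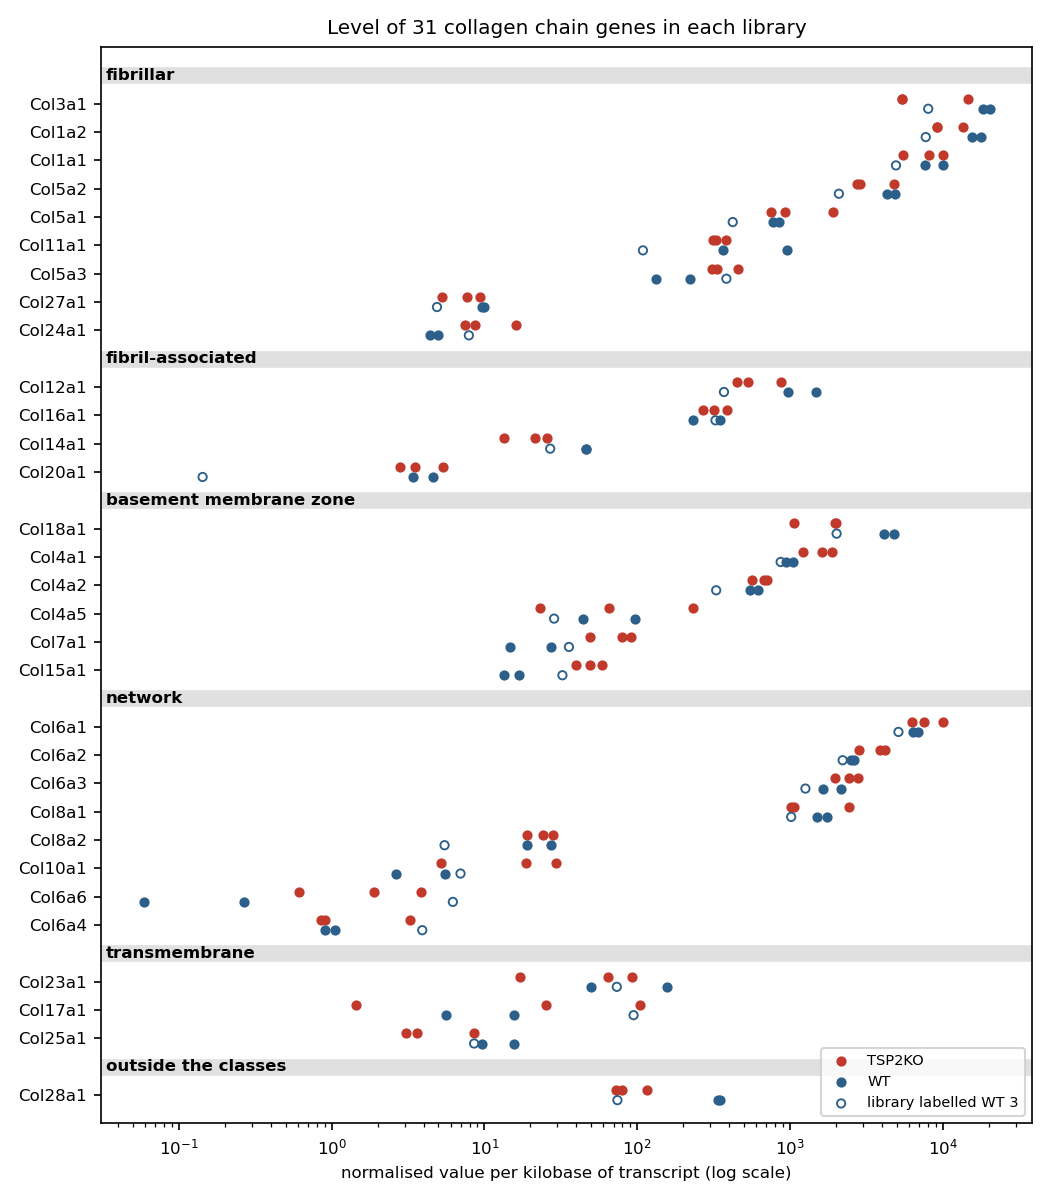
Level of each tested collagen gene in each library, in normalised reads per kilobase of transcript on a log scale, by class (rows); red points are TSP2KO, blue points WT 1 and WT 2, and open circles the library labelled WT 3. Col3a1, Col1a2, Col1a1 and Col6a1 lie at the high end, and the open circle lies left of both filled blue points for 21 of the 31 genes.

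Among the 9 fibrillar genes tested (of 11), 5 had a fold change above 0 and 4 below, with a median of 0.0065. Of the 9, 0 were at an unadjusted limma p under 0.05, against 9.75% of all tested genes. Leaving out the library labelled WT 3, 3 lay above 0 and 6 below, with a median of -0.42. Col3a1 (chromosome 1, 45311538 to 45349706, plus strand) had 30295, 30166 and 81603 normalised reads in TSP2KO 1 to 3, against 102049 in WT 1, 112793 in WT 2 and 44658 in the library labelled WT 3. WT 1 and WT 2 were the highest, TSP2KO 3 came next, and the library labelled WT 3 lay inside the TSP2KO range, so the groups overlapped. The means were 47355 ± 29660 in TSP2KO and 86499.9 ± 36632 in WT (SD, n = 3 each; log2 fold change -0.93 with SE 0.51, adjusted p = 0.654 by limma), the largest fold change of the class, which did not pass. Col1a1 (chromosome 11, 94936224 to 94953042, plus strand) had 32783, 48360.4 and 59283 normalised reads in TSP2KO 1 to 3, against 59560.4 in WT 1, 45392 in WT 2 and 29283 in the library labelled WT 3. Its groups covered nearly the same range. Means were 46809 ± 13318 in TSP2KO and 44745 ± 15149 in WT (SD, n = 3 each; log2 fold change 0.083 with SE 0.35, adjusted p = 0.965 by limma). Col1a2 (chromosome 6, 4504814 to 4541544, plus strand) had 49003, 48842 and 72488 normalised reads in TSP2KO 1 to 3, against 83434 in WT 1, 94479.5 in WT 2 and 41353 in the library labelled WT 3. The 2 highest values were WT and so was the lowest. Means were 56778 ± 13606 in TSP2KO and 73089 ± 28033 in WT (SD, n = 3 each; log2 fold change -0.30 with SE 0.37, adjusted p = 0.840 by limma).

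Type V collagen joins type I in the same fibrils and regulates their diameter. Its alpha-1 gene Col5a1 had 6293, 7827 and 16150.4 normalised reads in TSP2KO 1 to 3, against 6465 in WT 1, 7076 in WT 2 and 3544 in the library labelled WT 3. TSP2KO 3 alone lay far above the rest, and the means were 10089.8 ± 5304 in TSP2KO and 5695 ± 1888 in WT (SD, n = 3 each; log2 fold change 0.76 with SE 0.41, adjusted p = 0.643 by limma). The antisense transcripts 2810430I11Rik and Gm13372 share 99 and 113 exon bases with Col5a1 and had means of 28.1 and 2.63 normalised reads. How the counting treated strand is not stated, so reads from the shared bases cannot be told apart. Col5a2, the alpha-2 chain, had 18912, 18184 and 31659 normalised reads in TSP2KO 1 to 3, against 28641 in WT 1, 32041 in WT 2 and 13835 in the library labelled WT 3. Its order over the libraries was close to that of Col1a2. Means were 22918 ± 7579 in TSP2KO and 24839 ± 9680.2 in WT (SD, n = 3 each; log2 fold change -0.074 with SE 0.38, adjusted p = 0.971 by limma). Col5a3, the rarer alpha-3 chain, had 1885, 2802 and 2045 normalised reads in TSP2KO 1 to 3, against 1358 in WT 1, 816 in WT 2 and 2345 in the library labelled WT 3, so that WT 1 and WT 2 were the lowest and the library labelled WT 3 the second highest. The means were 2244 ± 489.9 in TSP2KO and 1506 ± 775 in WT (SD, n = 3 each; log2 fold change 0.68 with SE 0.38, adjusted p = 0.655 by limma). Without the library labelled WT 3 the value was 1.07 with SE 0.28 and adjusted p = 0.0722 by limma.

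Col11a1, the alpha-1 chain of type XI, a close relative of type V, had 2499.6, 2385 and 2925 normalised reads in TSP2KO 1 to 3, against 2800.2 in WT 1, 7353 in WT 2 and 835 in the library labelled WT 3. The TSP2KO libraries lay close together while the WT libraries held both the highest and the lowest value. Means were 2603 ± 284 in TSP2KO and 3663 ± 3344 in WT (SD, n = 3 each; log2 fold change 0.0065 with SE 0.69, adjusted p = 0.999 by limma). The value without the library labelled WT 3 was -0.81 with SE 0.38 and adjusted p = 0.250 by limma, of the opposite sign. Col24a1 and Col27a1, minor fibrillar chains, had log2 fold changes of 0.84 and -0.10, and their levels ranged from 53.4 to 114 and from 40.3 to 71.2 normalised reads in TSP2KO. Their WT ranges were 31.4 to 56.5 and 37.2 to 75.7, and neither passed (adjusted p = 0.558 and 0.963 by limma).

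Ratios of chains within a library do not depend on its scaling, and 2 of the 7 computed separated the groups; they were compared by two-sided exact permutation tests. The ratio of Col3a1 to Col1a1, in normalised reads, was 0.924, 0.624 and 1.38 in TSP2KO 1 to 3, against 1.71 and 2.48 in WT 1 and WT 2 and 1.53 in the library labelled WT 3. Every TSP2KO library lay below every WT library, a difference of -1.01 on the log2 scale (exact permutation p = 0.1; 0.35 adjusted over 7 ratios). The ratio of Col5a1 to Col5a2 was 0.333, 0.430 and 0.510 in TSP2KO 1 to 3, against 0.226 and 0.221 in WT 1 and WT 2 and 0.256 in the library labelled WT 3. Here every TSP2KO library lay above every WT library, the library labelled WT 3 included, a difference of 0.84 on the log2 scale (exact permutation p = 0.1; 0.35 adjusted over 7 ratios). With 3 libraries against 3, 0.1 is the smallest p this test can give, so no ratio could reach 0.05. Col1a1 to Col1a2 was 0.669, 0.990 and 0.818 in TSP2KO 1 to 3, against 0.714 and 0.480 in WT 1 and WT 2 and 0.708 in the library labelled WT 3, with overlapping groups and a difference of 0.39 on the log2 scale (exact permutation p = 0.3; 0.4 adjusted over 7 ratios).

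**Figure D3:**
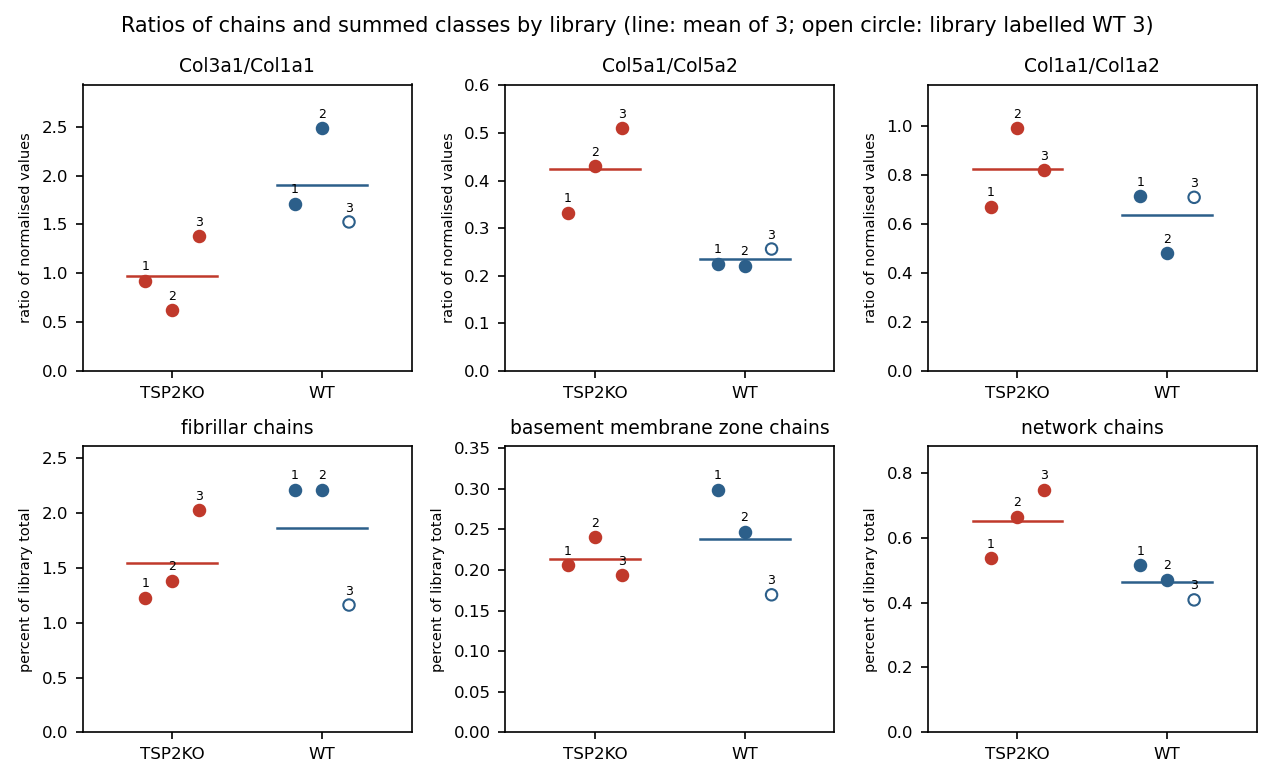
Upper row, ratio of the normalised reads of 2 chains in each library; lower row, summed chains of a class as a percent of all normalised reads of the library. TSP2KO (red) stands left of WT (blue) in each panel, lines are means of 3 libraries and the open circle is the library labelled WT 3. The groups do not overlap for Col3a1/Col1a1, Col5a1/Col5a2 and the network chains.

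Of all normalised reads, the 42 collagen genes together took 2.04%, 2.37% and 3.06% in TSP2KO 1 to 3, against 3.19% and 3.04% in WT 1 and WT 2 and 1.8% in the library labelled WT 3. The library labelled WT 3 was the lowest and WT 1 and TSP2KO 3 were close (log2 difference of -0.16 in summed normalised reads, exact permutation p = 0.8; 0.8 adjusted over 6 sums). Fibrillar chains took 1.23%, 1.38% and 2.02% in TSP2KO 1 to 3, against 2.21% and 2.21% in WT 1 and WT 2 and 1.16% in the library labelled WT 3 (log2 difference of -0.32 in summed normalised reads, exact permutation p = 0.6; 0.8 adjusted over 6 sums). For these chains TSP2KO 1 and TSP2KO 2 lay with the library labelled WT 3, and TSP2KO 3 lay nearer WT 1 and WT 2. Network chains took 0.537%, 0.665% and 0.748% in TSP2KO 1 to 3, against 0.514% and 0.471% in WT 1 and WT 2 and 0.408% in the library labelled WT 3. As a percent the groups did not overlap. As summed normalised reads they did, since TSP2KO 1 had 62171 and WT 1 66159 (log2 difference of 0.40 in summed normalised reads, exact permutation p = 0.3; 0.8 adjusted over 6 sums).

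The network class holds the beaded filaments of type VI and the short chains of types VIII and X. Of its 8 tested genes, 6 had a fold change above 0, with a median of 0.54. At an unadjusted limma p under 0.05 there was 1 of the 8, and 9.75% of all tested genes. Col6a1, Col6a2 and Col6a3 encode the chains of the common type VI trimer. Col6a2 (chromosome 10, 76595762 to 76623630, minus strand) had 11107, 15301 and 16605 normalised reads in TSP2KO 1 to 3, against 10378 in WT 1, 9856 in WT 2 and 8729.6 in the library labelled WT 3. All TSP2KO libraries lay above all WT libraries. Means were 14338 ± 2873 in TSP2KO and 9655 ± 843 in WT (SD, n = 3 each; log2 fold change 0.55 with SE 0.21, adjusted p = 0.452 by limma). Col6a1 had 25779, 31012 and 40961 normalised reads in TSP2KO 1 to 3, against 26118 in WT 1, 28424 in WT 2 and 21009.8 in the library labelled WT 3. TSP2KO 3 was highest and the library labelled WT 3 lowest, with TSP2KO 1 below WT 1, and the means were 32584 ± 7712 in TSP2KO and 25184 ± 3794 in WT (SD, n = 3 each; log2 fold change 0.36 with SE 0.25, adjusted p = 0.715 by limma). Col6a3, the longest of the 3 chains, had 19842, 24465 and 28237 normalised reads in TSP2KO 1 to 3, against 21917 in WT 1, 16541 in WT 2 and 12746 in the library labelled WT 3. Only WT 1 reached into the TSP2KO range. Means were 24181 ± 4204 in TSP2KO and 17068 ± 4608 in WT (SD, n = 3 each; log2 fold change 0.52 with SE 0.26, adjusted p = 0.601 by limma).

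The ratio of Col6a1 to Col6a2 averaged 2.27 ± 0.224 in TSP2KO and 2.6 ± 0.25 in WT, and that of Col6a3 to Col6a1 0.749 ± 0.0528 in TSP2KO and 0.676 ± 0.142 in WT (SD, n = 3 each). Both overlapped between groups (exact permutation p = 0.2 and 0.4, each with an adjusted p of 0.4). The alternative type VI chains Col6a4, Col6a5 and Col6a6 were scarce. Col6a4 reached 24.0 normalised reads in TSP2KO and 28.9 in WT, and Col6a5, not tested, 9.66 in TSP2KO and 7.70 in WT. Col6a6 reached 33.9 normalised reads in TSP2KO and 54.5 in WT, its highest value in the library labelled WT 3, against 0.515 and 2.35 in WT 1 and WT 2. The log2 fold change of Col6a6 was 1.26 with SE 1.36 (adjusted p = 0.821 by limma). Without the library labelled WT 3 it was 2.80 with SE 0.89 (adjusted p = 0.113 by limma).

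Col8a1, the alpha-1 chain of the short-chain collagen type VIII, had 5221, 5383 and 12334 normalised reads in TSP2KO 1 to 3, against 7643 in WT 1, 8914 in WT 2 and 5198 in the library labelled WT 3. TSP2KO 3 was the highest library and the other 2 TSP2KO libraries lay with the library labelled WT 3, giving means of 7646 ± 4061 in TSP2KO and 7252 ± 1889 in WT (SD, n = 3 each; log2 fold change -0.01 with SE 0.38, adjusted p = 0.995 by limma). Its partner Col8a2 was far scarcer per kilobase of transcript, at 23.7 ± 4.56 in TSP2KO and 17.2 ± 11 in WT, where Col8a1 had 1497 ± 795 in TSP2KO and 1419.7 ± 369.7 in WT. Their ratio in normalised reads averaged 81.6 ± 59.9 in TSP2KO and 129 ± 78.2 in WT (SD, n = 3 each; exact permutation p = 0.4, adjusted p = 0.4). Col10a1, known from the growth plate, had 58.6, 16.2 and 91.7 normalised reads in TSP2KO 1 to 3, against 8.24 in WT 1, 17.3 in WT 2 and 21.8 in the library labelled WT 3. TSP2KO 1 and TSP2KO 3 were high and TSP2KO 2 lay inside the WT range. Means were 55.5 ± 37.8 in TSP2KO and 15.8 ± 6.91 in WT (SD, n = 3 each; log2 fold change 1.54 with SE 0.69, adjusted p = 0.527 by limma), the largest fold change of the class. Col10a1 shares 18 exon bases with Nt5dc1 on the other strand, whose mean was 294 normalised reads, and its value is uncertain for that reason.

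Chains of the basement membrane zone held 4 of the 7 collagen genes at an unadjusted limma p under 0.05, as were 9.75% of all tested genes. Of 6 genes tested (of 9), 5 had a fold change above 0 and 1 below, with a median of 0.60. Of the 4, 3 were higher and 1 lower, where 3.66% and 6.09% of all tested genes were. Col7a1 (chromosome 9, 108953586 to 108984875, plus strand), the chain of the anchoring fibrils that tie the epidermal basement membrane to the dermis, had 450.4, 739.6 and 839.6 normalised reads in TSP2KO 1 to 3, against 251 in WT 1, 136 in WT 2 and 330.4 in the library labelled WT 3. Each TSP2KO library lay above each WT library. Means were 677 ± 202 in TSP2KO and 239 ± 97.7 in WT (SD, n = 3 each; log2 fold change 1.54 with SE 0.38, adjusted p = 0.238 by limma), or 2.90-fold higher on the fitted scale. Without the library labelled WT 3 the value was 1.82 with SE 0.36 and adjusted p = 0.0395 by limma. Keratinocytes make type VII collagen too, and their summed markers were 19591, 16444 and 657 in TSP2KO 1 to 3, against 2038 and 676 in WT 1 and WT 2 and 56324 in the library labelled WT 3. Col7a1 was highest in TSP2KO 3, the library with the lowest keratinocyte sum, while among the WT libraries both were lowest in WT 2 and highest in the library labelled WT 3. The part of keratinocytes in the Col7a1 result was not tested.

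Col15a1 (chromosome 4, 47208161 to 47313167, plus strand), a basement membrane collagen with a proteoglycan chain, had 256, 305 and 205 normalised reads in TSP2KO 1 to 3, against 69.5 in WT 1, 87.1 in WT 2 and 167 in the library labelled WT 3. The library labelled WT 3 lay between the groups but below all TSP2KO libraries, and the means were 255 ± 50.3 in TSP2KO and 108 ± 52.2 in WT (SD, n = 3 each; log2 fold change 1.32 with SE 0.36, adjusted p = 0.270 by limma), or 2.49-fold higher on the fitted scale. Without that library the value was 1.68 with SE 0.26 and adjusted p = 0.0207 by limma. Its closest relative Col18a1 (chromosome 10, 77052178 to 77166548, minus strand), whose C-terminal fragment is endostatin, had a fold change of the opposite sign, with 10979, 11246 and 5956 normalised reads in TSP2KO 1 to 3, against 26938 in WT 1, 22899.8 in WT 2 and 11289 in the library labelled WT 3. WT 1 and WT 2 stood far above all others, while the library labelled WT 3 exceeded TSP2KO 2 by a narrow margin. The means were 9394 ± 2980.3 in TSP2KO and 20376 ± 8124 in WT (SD, n = 3 each; log2 fold change -1.08 with SE 0.40, adjusted p = 0.433 by limma). Leaving out that library gave -1.46 with SE 0.31 and adjusted p = 0.0480 by limma. Endothelial cells also make both chains, and summed endothelial markers were 3169.5, 2816 and 703 in TSP2KO 1 to 3, against 1613 and 784 in WT 1 and WT 2 and 6777 in the library labelled WT 3. The part of these cells in either result was not tested.

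Col4a1 and Col4a2 encode the widespread type IV trimer and lie head to head, with first exons that share 22 bases on opposite strands. Col4a1 (chromosome 8, 11198423 to 11312826, minus strand) had 8100.4, 10784 and 12376 normalised reads in TSP2KO 1 to 3, against 6907 in WT 1, 6267 in WT 2 and 5743 in the library labelled WT 3. All TSP2KO libraries were above all WT libraries. Means were 10420.5 ± 2161 in TSP2KO and 6306 ± 583 in WT (SD, n = 3 each; log2 fold change 0.71 with SE 0.21, adjusted p = 0.318 by limma). Without the library labelled WT 3 the value was 0.64 with adjusted p = 0.146 by limma. Col4a2 (chromosome 8, 11312805 to 11449287, plus strand) had 3611, 4378 and 4559 normalised reads in TSP2KO 1 to 3, against 4009 in WT 1, 3507 in WT 2 and 2119.5 in the library labelled WT 3. WT 1 lay inside the TSP2KO range, and the means were 4183 ± 504 in TSP2KO and 3212 ± 979 in WT (SD, n = 3 each; log2 fold change 0.42 with SE 0.27, adjusted p = 0.692 by limma). Pericytes and smooth muscle cells also make type IV collagen. The 5 pericyte markers summed to 3954 to 5532 in TSP2KO and 521 to 2479 in WT, and 9 markers of myofibroblasts and smooth muscle to 84142 to 194477 in TSP2KO and 15879.7 to 29896 in WT. Both sums were higher in every TSP2KO library than in any WT library, as was Col4a1, and their part in its level was not tested. The pericyte sum was nearly all Cspg4, while Rgs5, Kcnj8 and Abcc9 were each highest in the library labelled WT 3 and had fold changes below 0. The ratio of Col4a1 to Col4a2 was 2.24, 2.46 and 2.71 in TSP2KO 1 to 3, against 1.72 and 1.79 in WT 1 and WT 2 and 2.71 in the library labelled WT 3, with overlapping groups and a difference of 0.28 on the log2 scale (exact permutation p = 0.3; 0.4 adjusted over 7 ratios).

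The X-linked Col4a5 ranged from 151 to 1513 normalised reads in TSP2KO and from 187 to 636 in WT, highest in TSP2KO 3 (log2 fold change 0.50 with SE 0.82, adjusted p = 0.894 by limma). Its neighbour Col4a6 had a mean under 10 and was not tested, but it too was highest in TSP2KO 3, at 19.6 normalised reads, against 7.06 in the highest WT library. Col4a3 and Col4a4, the chains of kidney and lung, stayed at or below 8.04 and 6.89 in TSP2KO and 10.3 and 10.3 in WT. Summed, the chains of the basement membrane zone took 0.206%, 0.241% and 0.194% in TSP2KO 1 to 3, against 0.299% and 0.247% in WT 1 and WT 2 and 0.17% in the library labelled WT 3 (log2 difference of -0.20 in summed normalised reads, exact permutation p = 0.5; 0.8 adjusted over 6 sums). Col18a1 made up 52.9% of that sum over all libraries, and without it the log2 difference was 0.65 in place of -0.20.

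**Figure D4:**
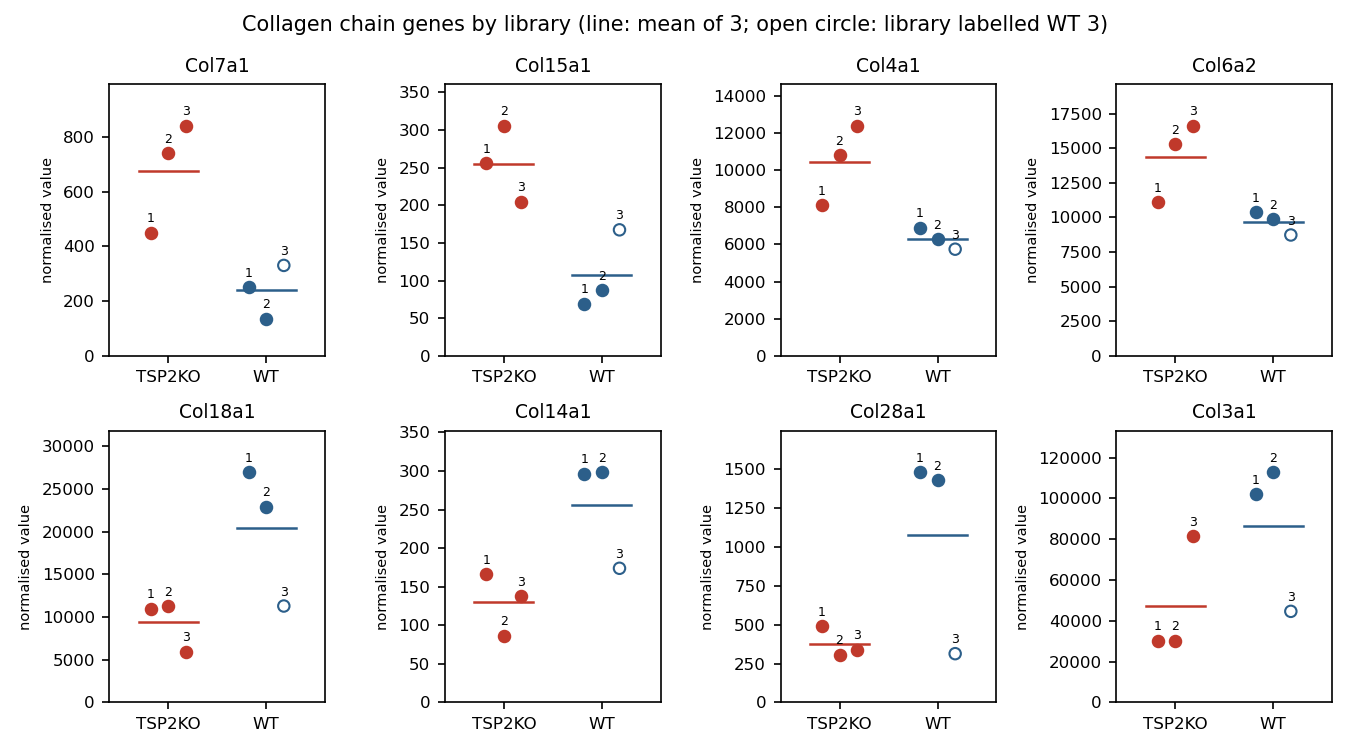
Normalised reads of 8 collagen genes in each library, with TSP2KO (red) left of WT (blue), replicate numbers above the points, lines at the mean of 3 libraries and an open circle for the library labelled WT 3. Col7a1, Col15a1, Col4a1 and Col6a2 lie higher in all TSP2KO libraries, Col18a1 and Col14a1 lower, and for Col28a1 and Col3a1 the open circle lies among the TSP2KO values.

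Fibril-associated chains were led by Col12a1 and Col16a1. Col12a1, of the long type XII molecules on the surface of type I fibrils, had 5171, 6111 and 10060.4 normalised reads in TSP2KO 1 to 3, against 17069 in WT 1, 11163 in WT 2 and 4253 in the library labelled WT 3. The WT libraries held both the 2 highest values and the lowest. Means were 7114 ± 2594 in TSP2KO and 10828 ± 6415 in WT (SD, n = 3 each; log2 fold change -0.45 with SE 0.51, adjusted p = 0.831 by limma). Without the library labelled WT 3 the value was -1.02 with adjusted p = 0.121 by limma. Col14a1 (chromosome 15, 55307750 to 55520803, plus strand), of the related type XIV, had 166, 86.7 and 138 normalised reads in TSP2KO 1 to 3, against 297 in WT 1, 298 in WT 2 and 174 in the library labelled WT 3. All TSP2KO libraries lay below all WT libraries. Means were 130.2 ± 40.2 in TSP2KO and 256 ± 71.3 in WT (SD, n = 3 each; log2 fold change -0.98 with SE 0.33, adjusted p = 0.389 by limma), although TSP2KO 1 and the library labelled WT 3 were close. Without that library the value was -1.24 with adjusted p = 0.0643 by limma.

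Col16a1, found near both fibrils and basement membranes, had 1654, 2004 and 1405 normalised reads in TSP2KO 1 to 3, against 1799 in WT 1, 1208 in WT 2 and 1693 in the library labelled WT 3. It was among the steadiest collagen genes. Means were 1688 ± 301 in TSP2KO and 1567 ± 315 in WT (SD, n = 3 each; log2 fold change 0.11 with SE 0.22, adjusted p = 0.915 by limma). Col20a1, of the little studied type XX, had 12.6, 15.7 and 24.0 normalised reads in TSP2KO 1 to 3, against 20.6 in WT 1, 15.3 in WT 2 and 0.641 in the library labelled WT 3. WT 1 and WT 2 lay inside the TSP2KO range and the library labelled WT 3 far below it. Means were 17.4 ± 5.91 in TSP2KO and 12.2 ± 10.3 in WT (SD, n = 3 each; log2 fold change 1.10 with SE 0.99, adjusted p = 0.780 by limma), the largest fold change of the class. Without that library the value was -0.072 with adjusted p = 0.946 by limma. Col9a3, Col19a1 and Col22a1 were not tested, with at most 5.59, 4.60 and 6.23 normalised reads in TSP2KO. In WT, Col9a3 and Col22a1 had at most 9.02 and 1.28, and Col19a1 was listed at 0 in all libraries. Fibril-associated chains together took 0.0606%, 0.0716% and 0.0885% in TSP2KO 1 to 3, against 0.149% and 0.0935% in WT 1 and WT 2 and 0.0523% in the library labelled WT 3 (log2 difference of -0.38 in summed normalised reads, exact permutation p = 0.6; 0.8 adjusted over 6 sums). Col12a1 made up 83.0% of that sum.

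The transmembrane chains were low, and all 3 that were tested had a fold change below 0. Col25a1, best known from neurons, had 8.04, 9.51 and 22.3 normalised reads in TSP2KO 1 to 3, against 25.2 in WT 1, 41.2 in WT 2 and 22.5 in the library labelled WT 3. All TSP2KO libraries lay below all WT libraries, with TSP2KO 3 and the library labelled WT 3 almost equal, and the means were 13.3 ± 7.82 in TSP2KO and 29.6 ± 10.1 in WT (SD, n = 3 each; log2 fold change -1.18 with SE 0.50, adjusted p = 0.512 by limma), the largest fold change of the class. Col23a1 lay between 96.2 and 521 normalised reads in TSP2KO and between 283 and 880.2 in WT (log2 fold change -0.83 with SE 0.67, adjusted p = 0.753 by limma). Col17a1, a hemidesmosome protein of basal keratinocytes, had 141, 587 and 8.01 normalised reads in TSP2KO 1 to 3, against 87.6 in WT 1, 31.4 in WT 2 and 529 in the library labelled WT 3. Its spread within each group exceeded any difference between them (log2 fold change -0.34 with SE 1.59, adjusted p = 0.968 by limma). Its 3 highest libraries, TSP2KO 2, the library labelled WT 3 and TSP2KO 1, were the 3 with the highest keratinocyte markers, but in another order. Summed keratinocyte markers in these 3 were 16444, 56324 and 19591. The part of keratinocytes in the Col17a1 values was not tested. Col13a1, of the muscle-nerve synapse among other sites, was not tested, with at most 7.47 normalised reads in TSP2KO and 5.13 in WT. Summed transmembrane chains were 589.6 ± 499.8 in TSP2KO and 774 ± 361 in WT (log2 difference of -0.74 in summed normalised reads, exact permutation p = 0.7; 0.8 adjusted over 6 sums).

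Outside these classes, Col28a1 (chromosome 6, 7997808 to 8192617, minus strand) encodes a chain with von Willebrand factor domains that is known from peripheral nerve and glia. It had 489, 308 and 338 normalised reads in TSP2KO 1 to 3, against 1480.2 in WT 1, 1431 in WT 2 and 314 in the library labelled WT 3. WT 1 and WT 2 were near equal and far above the rest, and the library labelled WT 3 lay inside the TSP2KO range. The means were 378 ± 97.0 in TSP2KO and 1075 ± 659.9 in WT (SD, n = 3 each; log2 fold change -1.23 with SE 0.59, adjusted p = 0.572 by limma). Without the library labelled WT 3 it had the lowest adjusted p of the collagen genes, at -1.97 with SE 0.23 and adjusted p = 0.0144 by limma. The summed level of 6 Schwann cell and glial markers, 5 of them at a mean of at least 10, was 5645, 4157 and 1953 in TSP2KO 1 to 3, against 12798 and 10589.7 in WT 1 and WT 2 and 5088 in the library labelled WT 3. Cdh19 and Erbb3 led these markers and, like Sox10 and Foxd3, were highest in WT 1. Mbp and S100b were instead highest in TSP2KO 1, at 502 and 446 normalised reads, with log2 fold changes of 0.013 and -0.29. The part of these cells in the Col28a1 result was not tested. Col26a1 stayed at or below 1.78 normalised reads in TSP2KO and 0.515 in WT.

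**Figure D5:**
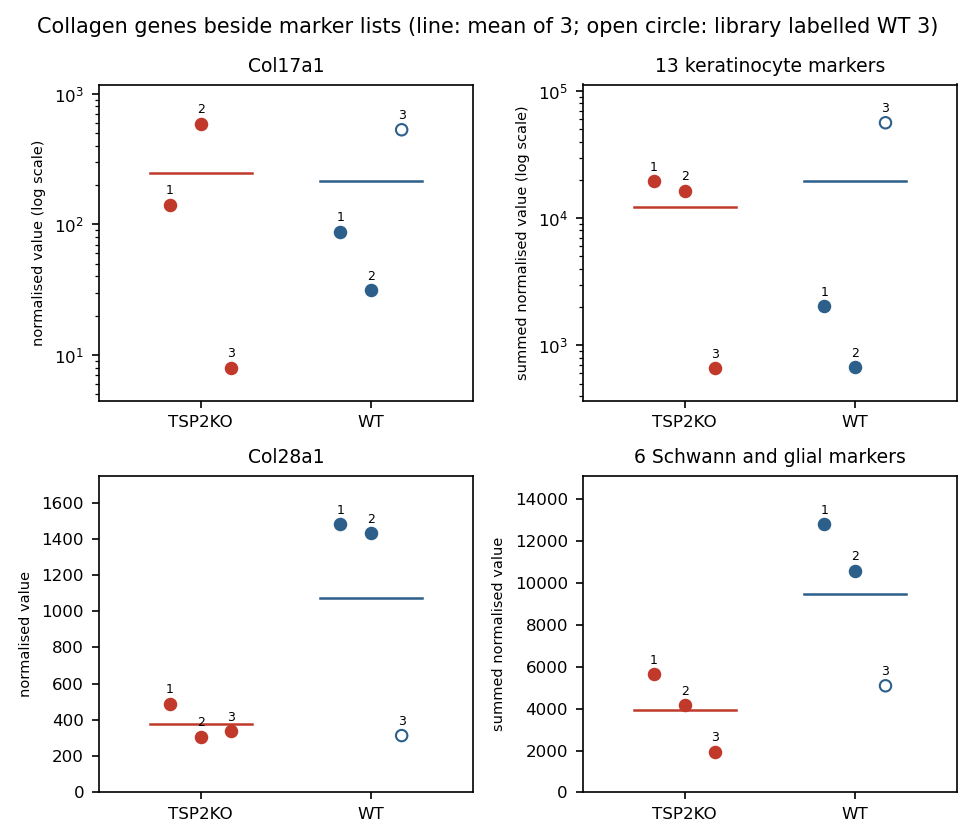
Col17a1 and Col28a1 (left panels, normalised reads) beside the summed keratinocyte markers and Schwann cell and glial markers (right panels), with TSP2KO (red) left of WT (blue), lines at the mean of 3 libraries and an open circle for the library labelled WT 3. The upper panels have a log axis. TSP2KO 3 is lowest for both measures of the upper row, and WT 1 and WT 2 are highest for both of the lower row.

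Genes that modify, export, cleave, crosslink or bind collagen were read from the same fit. Of 44 such genes, 43 were in the table and 40 were tested, and 0 passed with all libraries by limma or limma-voom. At an unadjusted limma p under 0.05, 1 was higher and 1 lower, where 9.75% of all tested genes were at that level in either direction. The median log2 fold change was -0.026. Adamts2, which removes the amino-terminal propeptide of type I and III procollagen, had 1449, 2006 and 1396 normalised reads in TSP2KO 1 to 3, against 5735 in WT 1, 6052 in WT 2 and 1881 in the library labelled WT 3. WT 1 and WT 2 stood apart from the other 4 libraries. Means were 1617 ± 338 in TSP2KO and 4556 ± 2322 in WT (SD, n = 3 each; log2 fold change -1.34 with SE 0.45, adjusted p = 0.384 by limma). Bmp1, which removes the carboxy-terminal propeptide, had means of 571 ± 155 in TSP2KO and 1055 ± 418 in WT (SD, n = 3 each; log2 fold change -0.82 with SE 0.37, adjusted p = 0.527 by limma). Leaving out the library labelled WT 3, these 2 of the 40 genes passed, both lower in TSP2KO, at -1.88 with adjusted p = 0.0127 by limma and -1.21 with adjusted p = 0.0424 by limma. Of all tested genes, 5.17% passed in that fit and 2.75% as lower, so the count is near the background.

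Fkbp10, a chaperone of procollagen in the endoplasmic reticulum, had 6629, 7603 and 12686 normalised reads in TSP2KO 1 to 3, against 5105 in WT 1, 5479 in WT 2 and 5721 in the library labelled WT 3. All TSP2KO libraries lay above all WT libraries. Means were 8973 ± 3253 in TSP2KO and 5435 ± 310.3 in WT (SD, n = 3 each; log2 fold change 0.67 with SE 0.26, adjusted p = 0.462 by limma). Serpinh1, the collagen-specific chaperone also called HSP47, was abundant in both groups. Means were 41783 ± 4826 in TSP2KO and 33331 ± 3842 in WT (SD, n = 3 each; log2 fold change 0.33 with SE 0.21, adjusted p = 0.698 by limma). P4ha1, a subunit of prolyl 4-hydroxylase, had means of 2993 ± 354 in TSP2KO and 4181 ± 873 in WT (SD, n = 3 each; log2 fold change -0.47 with SE 0.21, adjusted p = 0.533 by limma). P3h4, a partner of lysyl hydroxylation, had means of 144 ± 27.9 in TSP2KO and 92.0 ± 29.5 in WT (SD, n = 3 each; log2 fold change 0.67 with SE 0.31, adjusted p = 0.561 by limma). P3h2, a prolyl 3-hydroxylase, had means of 37.3 ± 25.8 in TSP2KO and 77.6 ± 52.6 in WT (SD, n = 3 each; log2 fold change -1.24 with SE 0.79, adjusted p = 0.694 by limma).

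The crosslinking enzyme Lox had 4895, 6094 and 6008 normalised reads in TSP2KO 1 to 3, against 9496 in WT 1, 7254 in WT 2 and 2591 in the library labelled WT 3. Its groups overlapped. Means were 5666 ± 669 in TSP2KO and 6447 ± 3523 in WT (SD, n = 3 each; log2 fold change 0.002 with SE 0.46, adjusted p = 1.00 by limma). Loxl3, of the same family, had means of 4827 ± 3742 in TSP2KO and 2206 ± 448 in WT (SD, n = 3 each; log2 fold change 0.89 with SE 0.48, adjusted p = 0.645 by limma), and TSP2KO 3 was highest at 9146 normalised reads. Plod2, the lysyl hydroxylase of telopeptides, had means of 273 ± 102 in TSP2KO and 258 ± 134 in WT (SD, n = 3 each; log2 fold change 0.13 with SE 0.45, adjusted p = 0.959 by limma). Ddr1, a receptor kinase for collagen, had means of 466 ± 41.6 in TSP2KO and 372 ± 71.7 in WT (SD, n = 3 each; log2 fold change 0.34 with SE 0.20, adjusted p = 0.678 by limma).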

How the data were processed

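The deposited table gives a normalised signal per gene, called normalised counts in its name, for 23407 genes and 6 libraries. The submitters' processing notes name the build mm10 and the tools STAR, Partek and DESeq2, in no stated order or role; how reads were counted, and on which strand, is not stated. They also name Cell Ranger and Seurat 5.0.3, which serve single cells and were not needed. The most frequent value above 0 in each library was taken as the worth of 1 read, and dividing by it gave the estimated depth. Of the values above 0, 68.6% to 73.9% were whole multiples of it within 0.02 of a read, so no count test was run. Precision is limited by the 3 libraries per group. Table columns carry genotype and number, by which each was assigned to its sample; their library suffixes differ from the labels.

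The tests used log2(value + 1) for genes with a mean of at least 10, in a two-sided limma fit with a variance trend (limma 3.58.1, R 4.3.3), with Benjamini-Hochberg adjustment over 14707 genes and a threshold of 0.05. Fold changes are on that scale and understate the change of low genes. The fit was tested on simulated data. Sums and ratios were compared by exact permutation of the libraries. Coordinates of all 42 members equalled those of GENCODE M21 once the stop was lowered by 1 base, and transcript lengths come from it. Genes were named with all values if their mean was at least 1000, their unadjusted p under 0.05 or their change the largest of a class; of the synthesis list, the 8 with the smallest p and Serpinh1, Lox and Plod2. From the Schwann cell and glial marker list, 2 genes are not reported here and are not in its sum. The members, lists and rules were chosen with earlier results of these data known. Other pseudocounts, filters, scaling, tests, a replicate block and leaving out each library were tried.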

Additional observations from a re-analysis of the deposited data

How the results depend on the processing

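Of the 31 collagen genes tested, 21 kept the sign of their fold change under every alternative, and 10 changed it in at least 1. No collagen gene passed with pseudocounts of 0.1 or 10, without a filter, with a mean of at least 100, with scaling by trimmed means (TMM), by limma-voom or with robust shrinkage. By limma-voom, Col5a2 was at 0.0026 and Col8a1 at 0.064 in place of -0.074 and -0.010. The median log2 fold change of all tested genes was 0.060 in that fit, in place of -0.014. Over all genes, 9 passed as lower with all libraries, 14 with a pseudocount of 10, and 0 with a pseudocount of 0.1, without a filter, with a mean of at least 100 or by limma-voom; the cause was not tested. With the replicate block 0 genes passed, and 0 collagen genes. Deviations of same-numbered libraries from their group means correlated at -0.42, -0.25 and -0.39 across genes. Those of libraries with unlike numbers correlated at -0.47 to 0.55. Deviations within a group cancel out, so this check cannot settle whether same-numbered libraries were handled together.

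Leaving out 1 library in turn, 0 to 357 genes passed as higher and 0 to 404 as lower, 0 to 2 collagen genes as higher and 0 to 2 as lower, and 0 to 2 genes of collagen synthesis and binding as lower, each highest without the library labelled WT 3. Log2 fold changes that changed sign ran from -0.19 to 0.32 for Col1a1, from -0.45 to 0.15 for Col5a2, from -0.81 to 0.76 for Col11a1, from -0.42 to 0.13 for Col27a1, from -0.063 to 0.24 for Col16a1, from -0.072 to 1.79 for Col20a1, from -0.36 to 1.30 for Col4a5, from -0.75 to 0.46 for Col6a4, from -0.42 to 0.20 for Col8a1, from -1.69 to 1.33 for Col17a1. The log2 difference of summed chains ran from -0.48 to 0.00703 for all collagens, above 0 without TSP2KO 1, WT 1 or WT 2. It ran from -0.69 to -0.11 for fibrillar chains, from -0.83 to -0.0105 for fibril-associated chains, from 0.23 to 0.56 for network chains, from -0.49 to -0.0121 for the basement membrane zone and from -1.44 to 0.12 for transmembrane chains, above 0 without TSP2KO 3. The median log2 fold change ran from -0.42 to 0.15 for fibrillar genes and for the basement membrane zone from 0.40 to 0.92. Without its most abundant chain, the difference was 0.018 for all collagens (Col3a1 left out), 0.0052 for fibril-associated chains (Col12a1) and 0.65 for the basement membrane zone (Col18a1). The 7 ratios kept their direction without each library. The filter on low values left 11 collagen genes untested, and 3 libraries a group limit what the fit can call.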

Other observations

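Some neighbouring collagen genes had fold changes of unlike sign or size, while Col4a1 and Col4a2 had log2 fold changes of like sign, 0.71 and 0.42. Differences between neighbours were not tested. On chromosome 10, Col6a2 (76595762 to 76623630), Col6a1 (76708792 to 76726168) and Col18a1 (77052178 to 77166548) lie in a row on the minus strand. Their log2 fold changes were 0.55, 0.36 and -1.08 (adjusted p = 0.452, 0.715 and 0.433 by limma), none past the threshold. On chromosome 1, Col3a1 and Col5a2 lie tail to tail, with log2 fold changes of -0.93 and -0.074. In both genes WT 1 and WT 2 were high and TSP2KO 1 and TSP2KO 2 low, and Col5a2 was lowest in the library labelled WT 3.

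TSP2KO 3 stood apart from TSP2KO 1 and TSP2KO 2 for several abundant chains. It held 81603 normalised reads of Col3a1 where these had 30295 and 30166, 16150.4 of Col5a1 where these had 6293 and 7827, and 12334 of Col8a1 where these had 5221 and 5383. In the same library summed keratinocyte markers were 657 and summed markers of myofibroblasts and smooth muscle 194477, where TSP2KO 1 and TSP2KO 2 had 19591 and 16444 of the first and 84142 and 86526 of the second. Their part in the collagen values was not tested.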
